A study of Mus musculus with 8 samples.

Results

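The 10 genes followed here belong to the hepatic acute phase response and were measured in the livers of 8 female mice. They are the orosomucoids Orm1, Orm2 and Orm3, the serum amyloid A genes Saa1, Saa2, Saa3 and Saa4, and Hp, Lcn2 and Apcs. They were picked by gene symbol, and all 10 were found among the 24674 lines of the table that carry a symbol. The 4 F2_outcross mice were wild type themselves, but their mother's mother was Khdc3-null. The 4 WT mice were labelled wild type, and their genotype label names no Khdc3-null ancestor. Khdc3 acts in the egg and the first cell divisions, and both groups carry its intact alleles. The question is whether the descent alone goes with a different liver transcriptome. The labels used here name no litter or dam, so a p-value speaks of the spread among these 8 libraries only, which may in part be technical. The labels name the hepatocyte as cell type and the liver as source. Alb, the albumin gene of hepatocytes, was at 2312400 normalized reads or more in every library, and markers of Kupffer cells and of sinusoidal endothelium were detected as well.

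Acute phase proteins are plasma proteins that hepatocytes secrete in larger amounts during infection or injury, when interleukin 6 acts through STAT3, interleukin 1 through NF-kappaB and C/EBP factors, and glucocorticoids add to the response. Saa1 and Saa2 encode apolipoproteins that join high-density lipoprotein and are among the most strongly induced of them in mice. Saa4 encodes a form that the liver makes without stimulation, and Saa3 is made largely outside hepatocytes, by macrophages and fat cells. Orosomucoids, also called alpha-1-acid glycoproteins, bind lipophilic drugs. Haptoglobin (Hp) captures free haemoglobin, lipocalin 2 (Lcn2) withholds bacterial siderophores, and serum amyloid P (Apcs) is a pentraxin and a major acute phase protein of the mouse.

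The paralogs lie side by side. In build GRCm38 (GENCODE M21) Orm1 occupies 63344560 to 63348163 of chromosome 4, Orm3 63356162 to 63359511 and Orm2 63362449 to 63365878. On chromosome 7, Saa3 occupies 46711998 to 46715700, Saa4 46727998 to 46732603, Saa1 46740497 to 46742980 and Saa2 46751790 to 46754313. Saa1 is read from the minus strand and Saa2 from the plus strand, so this pair is transcribed away from each other. The single genes are Hp (chromosome 8, 109575128 to 109579172), Lcn2 (chromosome 2, 32384633 to 32388252) and Apcs (chromosome 1, 172893961 to 172895041). The annotated transcripts of Saa1 and Saa2 are 93.9% identical, those of Orm1 and Orm2 91.0%, and those of Orm2 and Orm3 88.0%. Of the 50-base words of Orm1, 20.4% also occur in Orm2 and 2.20% in Orm3, and of those of Saa1, 13.2% also occur in Saa2 and 0% in Saa4. Reads from shared stretches may have been counted for either copy, so single values of Orm1, Orm2, Saa1 and Saa2 are uncertain to that extent, and family sums are given too.

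RefSeq promoter windows (GRCm38.p6, 250 bases before to 50 after the start) were matched for 8 of the 10 genes. Those of Saa1, Saa2, Saa4, Orm3 and Orm2 follow, since these close relatives had unlike values in the livers; they read 5′ to 3′ on the gene's own strand. Capitals mark any match, on either strand, to 5 searched motifs. The letters searched were TTNNGNAAT for C/EBP, and GGNNTTTCC for NF-kappaB. For STAT3 they were TTCNNNGAA. The core of the glucocorticoid receptor site was searched as TGTTCT. The TATA box was searched as TATAAA. None of these overlap one another in the printed windows. Saa1 is at chr7:46742931-46743230 (minus), Saa2 at chr7:46751583-46751882 (plus), Saa4 at chr7:46732554-46732853 (minus), Orm3 at chr4:63355908-63356207 (plus) and Orm2 at chr4:63362199-63362498 (plus).
Saa1: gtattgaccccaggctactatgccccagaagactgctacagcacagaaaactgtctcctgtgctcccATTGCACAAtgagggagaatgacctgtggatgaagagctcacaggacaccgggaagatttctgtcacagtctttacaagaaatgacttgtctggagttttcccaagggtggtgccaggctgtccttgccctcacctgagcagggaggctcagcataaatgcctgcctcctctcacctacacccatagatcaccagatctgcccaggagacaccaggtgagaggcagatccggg
Saa2: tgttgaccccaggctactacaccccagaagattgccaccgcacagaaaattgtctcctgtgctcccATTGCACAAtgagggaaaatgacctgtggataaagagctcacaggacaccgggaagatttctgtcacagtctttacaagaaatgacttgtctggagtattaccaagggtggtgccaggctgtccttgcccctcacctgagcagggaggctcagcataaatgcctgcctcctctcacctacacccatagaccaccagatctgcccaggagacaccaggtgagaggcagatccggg
Saa4: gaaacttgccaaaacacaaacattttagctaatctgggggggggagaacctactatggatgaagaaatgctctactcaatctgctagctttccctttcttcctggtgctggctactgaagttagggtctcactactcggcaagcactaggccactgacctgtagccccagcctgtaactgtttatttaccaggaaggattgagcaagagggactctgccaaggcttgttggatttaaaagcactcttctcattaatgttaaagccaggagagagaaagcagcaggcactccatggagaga
Orm3: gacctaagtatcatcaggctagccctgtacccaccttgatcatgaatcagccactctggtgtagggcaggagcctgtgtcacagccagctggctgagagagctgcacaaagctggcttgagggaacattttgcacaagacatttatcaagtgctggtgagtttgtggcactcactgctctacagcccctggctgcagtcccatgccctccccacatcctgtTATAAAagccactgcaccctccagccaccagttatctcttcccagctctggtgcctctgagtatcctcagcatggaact
Orm2: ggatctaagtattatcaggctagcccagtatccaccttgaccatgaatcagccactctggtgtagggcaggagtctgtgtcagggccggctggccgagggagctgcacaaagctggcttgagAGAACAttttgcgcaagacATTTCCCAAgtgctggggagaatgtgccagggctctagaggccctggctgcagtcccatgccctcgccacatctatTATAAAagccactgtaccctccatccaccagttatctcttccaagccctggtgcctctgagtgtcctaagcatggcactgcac

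The Saa1 and Saa2 windows were 95.3% identical, and each holds one C/EBP match with the same 9 letters, 183 to 175 bases before the start in Saa1 and 184 to 176 in Saa2. The Saa4 window, 46.8% identical to that of Saa1, holds no match to any of the 5 motifs. The Orm2 and Orm3 windows were 86.2% identical and share a TATA box, while the C/EBP match and the glucocorticoid receptor core are in Orm2 only. C/EBP letters occur in 11.4% of all 32544 windows of this length, the glucocorticoid receptor core in 18.9%, the TATA box in 13.6%, STAT3 letters in 8.33% and NF-kappaB letters in 5.83%. Among the 8 windows of these genes, 3 held C/EBP letters, 2 the glucocorticoid receptor core, 2 the TATA box, 1 (Apcs) the STAT3 letters and 1 (Saa3) the NF-kappaB letters. The NF-kappaB result depends on the letters: searched first with a further G in front, they occur in 1.61% of all windows and in 0 of the 8. Letters in a window are a description and do not show that a factor binds there.

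Of the 10 genes 2, Saa4 and Orm3, rose in F2_outcross livers, and none fell (limma, Benjamini-Hochberg adjusted p under 0.05 over 14390 genes). Among all genes tested, 1.60% were called higher, 1.06% lower and 2.66% in either direction. In the same 2 genes every F2_outcross library lay above every WT library, as it did in 6.50% of all genes tested. Saa1, Saa2 and Lcn2 had large positive fold changes that did not pass the test. Orm1, Orm2, Saa3 and Hp differed by less than their spread, and Apcs was lower without passing. The median log2 fold change of the 10 genes was 0.48, against -0.01 over all genes tested. These values only describe the 10 genes, which were chosen with earlier results of these data known and include paralogs that may share reads. Libraries held 27855142 to 35602558 reads in named genes, and a normalized read stands for about 1 read (0.779 to 1.04 normalized reads per read).

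**Figure D1:**
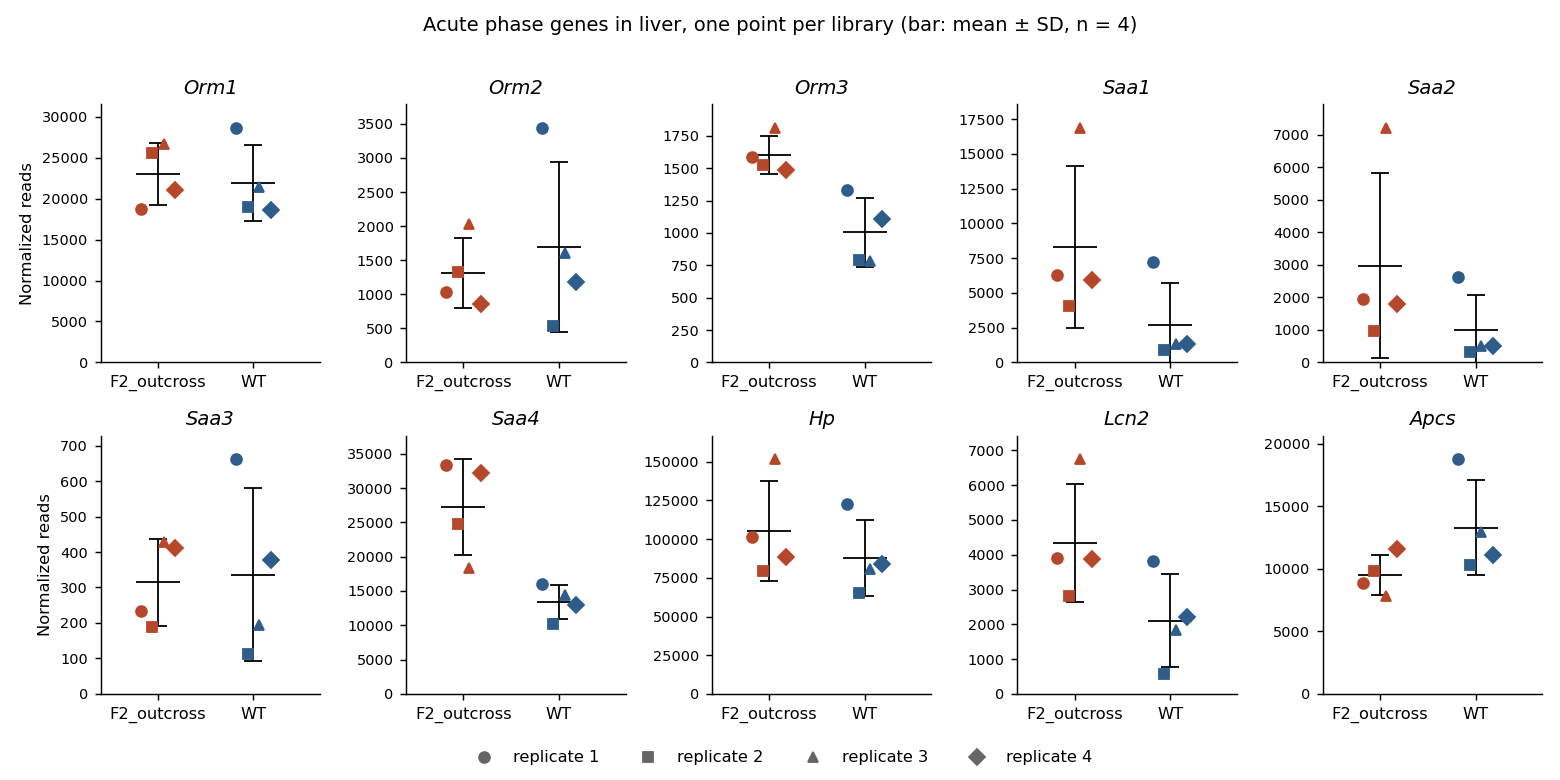
Normalized reads of the 10 genes in each library (linear axis from 0), with F2_outcross left of WT. The horizontal bars are means with SD (n = 4 per group), lower bars that would pass 0 are cut there, and marker shapes give the replicate. Saa4 and Orm3 separate the groups, while Saa1 and Saa2 have single high libraries in both groups.

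Saa4, the serum amyloid A form that the liver makes without stimulation, showed the clearest difference. It was at 33341, 24781, 18387 and 32241 normalized reads in F2_outcross replicates 1 to 4, against 16062, 10189.5, 14409 and 12998 in WT replicates 1 to 4. The lowest F2_outcross library was thus above the highest WT library. The means were 27187 ± 6991 in F2_outcross and 13414.5 ± 2488 in WT (SD, n = 4 per group), a 2.00-fold rise with a log2 fold change of 1.00 ± 0.20 (SE) and a limma adjusted p of 0.0249. Its call was lost in 5 of the 8 fits that left out a library, namely F2_outcross replicate 1, 2 or 4 or WT replicate 3 or 4 (adjusted p 0.0531 to 0.0737), with log2 fold changes between 0.87 and 1.17 over all 8.

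Saa1 and Saa2, the inducible pair, varied together across the libraries. Saa1 was at 6316, 4062, 16873 and 5959 normalized reads in F2_outcross replicates 1 to 4, against 7215, 919.5, 1318 and 1343 in WT replicates 1 to 4. WT replicates 2, 3 and 4 lay below every F2_outcross library, while WT replicate 1 lay among them. Its log2 fold change was 1.94 ± 0.57 (adjusted p = 0.0849), a 3.85-fold difference that did not pass. Saa2 was at 1938, 963, 7206 and 1792 in F2_outcross replicates 1 to 4, against 2620, 312, 491 and 517 in WT replicates 1 to 4. It differed by 1.71 ± 0.64 on the log2 scale (3.28-fold, adjusted p = 0.159). WT replicate 1 and F2_outcross replicate 3 stood apart in both genes. Without WT replicate 1 Saa1 passed (log2 fold change 2.60, adjusted p = 0.0102) and Saa2 did not (2.36, adjusted p = 0.0535). Without F2_outcross replicate 3 the log2 fold changes were 1.53 for Saa1 (adjusted p = 0.157) and 1.15 for Saa2 (adjusted p = 0.292).

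Saa1 held 3.26, 4.22, 2.34 and 3.32 times the normalized reads of Saa2 in F2_outcross replicates 1 to 4, and 2.75, 2.94, 2.69 and 2.60 times in WT replicates 1 to 4. The ratio was lowest in the F2_outcross library with the most Saa1, and the groups overlapped. These ratios compare reads of transcripts of nearly the same length, 609 bases for Saa1 and 606 for Saa2.

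Saa3, the form made largely outside hepatocytes, was the least abundant of the 10. It was at 233, 188, 429 and 410.4 normalized reads in F2_outcross replicates 1 to 4, against 661, 111, 194 and 378 in WT replicates 1 to 4. The groups overlapped over nearly their whole range, and the log2 fold change of 0.13 ± 0.46 did not pass (adjusted p = 0.901).

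Summed over its members, the Saa family rose. The sum was 41828, 29993, 42895 and 40403 normalized reads in F2_outcross replicates 1 to 4, against 26557, 11532, 16411 and 15236 in WT replicates 1 to 4. No F2_outcross library was as low as the highest WT library. With each family entered as one line, the sum was 2.31 times higher by limma (1.21 ± 0.22 on the log2 scale, adjusted p = 0.0179). It lost its call without F2_outcross replicate 1, WT replicate 3 or WT replicate 4 (adjusted p = 0.0553, 0.0553 and 0.0589). The make-up of the sum overlapped between the groups and differed by library. Saa4 gave 79.7%, 82.6%, 42.9% and 79.8% of it in F2_outcross replicates 1 to 4, and 60.5%, 88.4%, 87.8% and 85.3% in WT replicates 1 to 4. In F2_outcross replicate 3, where Saa4 was lowest of its group, Saa1 and Saa2 together reached 24079 normalized reads. Saa1 plus Saa2, without Saa4, ranged from 5025 to 24079 in F2_outcross and from 1232 to 9834 in WT, with overlap.

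**Figure D2:**
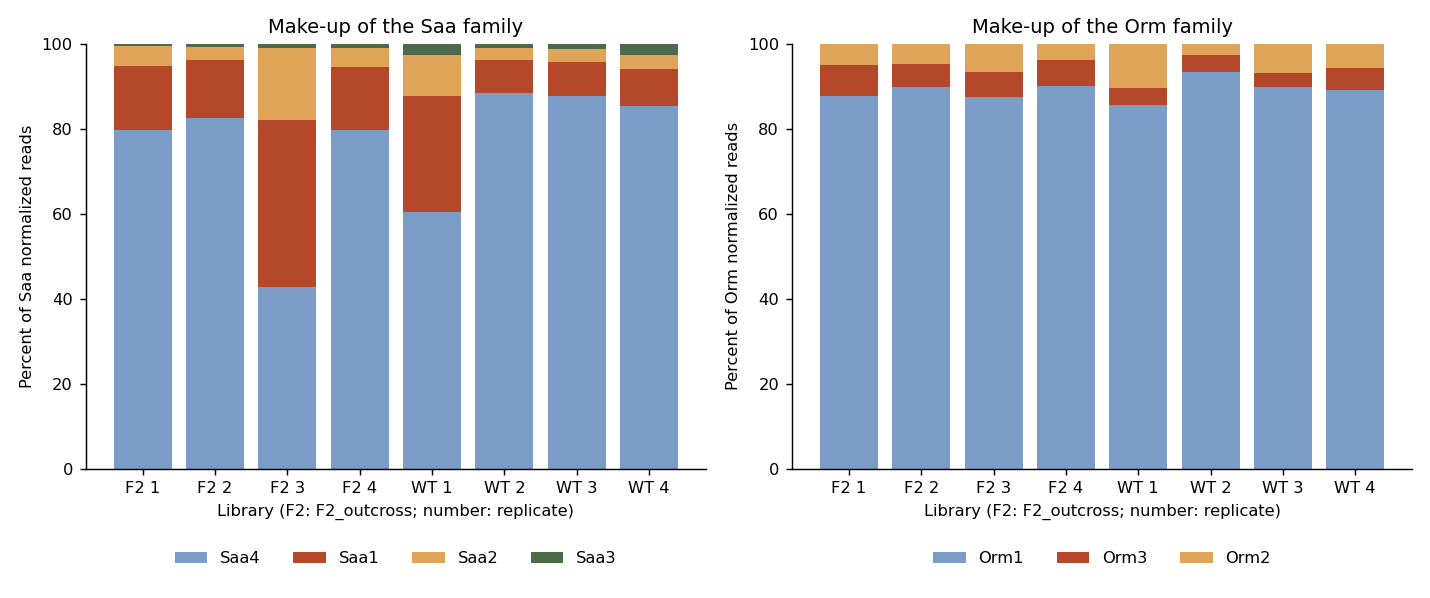
Share of each paralog in the normalized reads of its family, in percent, for the 4 F2_outcross and then the 4 WT libraries. Saa4 falls to 42.9% of Saa reads in F2_outcross replicate 3 and to 60.5% in WT replicate 1, whereas Orm1 gives 85.7% to 93.5% of Orm reads in every library.

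Orm3 was the one orosomucoid to rise. It was at 1586, 1528, 1811 and 1485 normalized reads in F2_outcross replicates 1 to 4, against 1332, 791, 786 and 1109 in WT replicates 1 to 4. The F2_outcross libraries were close to each other and all above the WT libraries. The means were 1602.5 ± 145 in F2_outcross and 1004 ± 265 in WT (SD, n = 4 per group), a 1.63-fold rise (log2 fold change 0.71 ± 0.16, adjusted p = 0.0407). This call was near the threshold: it held without WT replicate 1 or 2 and was lost in the other 6 fits that left out a library (adjusted p 0.0611 to 0.109), with voom (0.0806) and with quantile normalization (0.0544).

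Orm1, the main orosomucoid, and Orm2 did not pass. Orm1 was at 18694, 25559, 26727 and 21122 normalized reads in F2_outcross replicates 1 to 4, against 28653, 19027, 21444 and 18651 in WT replicates 1 to 4. The groups overlapped throughout (log2 fold change 0.08 ± 0.17, adjusted p = 0.833). Orm2 was at 1032, 1320.4, 2033 and 859 in F2_outcross replicates 1 to 4, against 3441, 527, 1610.0 and 1181 in WT replicates 1 to 4. Its spread in WT, 6.52-fold from lowest to highest, exceeded any difference between groups (log2 fold change -0.13 ± 0.44, adjusted p = 0.893), and without WT replicate 1 the log2 fold change was 0.31.

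The Orm sum was at 21311, 28407, 30571 and 23466 normalized reads in F2_outcross replicates 1 to 4, against 33426, 20346, 23840 and 20941 in WT replicates 1 to 4. It did not pass (log2 fold change 0.09 ± 0.18, adjusted p = 0.816). Orm1 supplied most of that sum in every library. The share of Orm3 in it was 5.38% to 7.44% in F2_outcross and 3.30% to 5.29% in WT, without overlap. Of the 50-base words of Orm3, 2.21% also occur in Orm1 and 3.59% in Orm2. The part of shared reads in the Orm3 values was not tested.

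**Figure D3:**
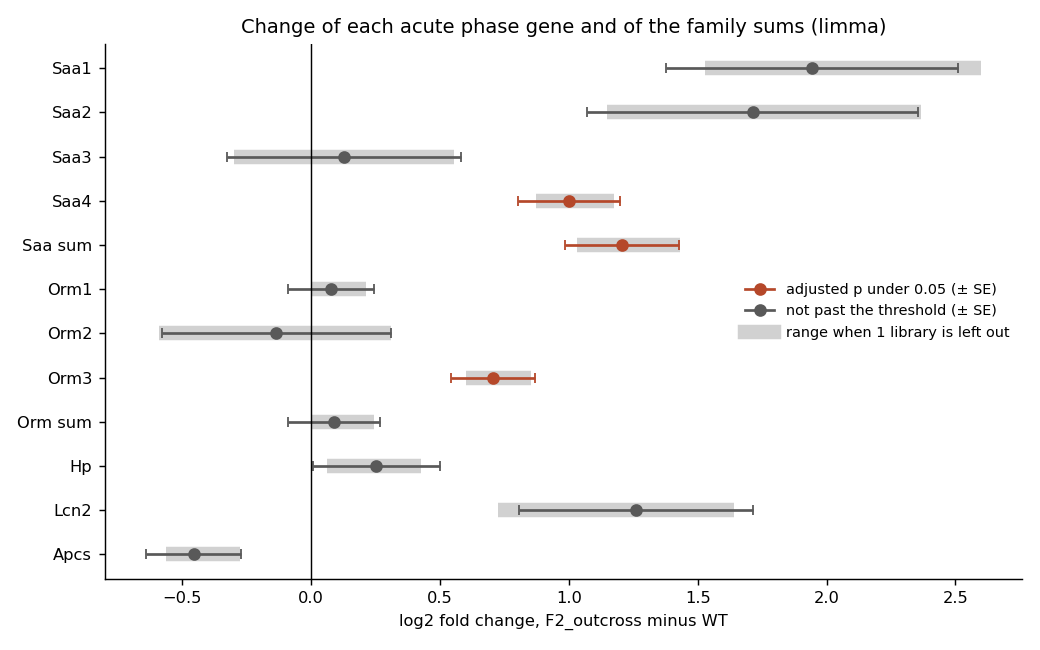
Log2 fold change of each gene and family sum, F2_outcross minus WT (points, with SE from limma), and the range of that value over the 8 fits that each left out 1 library (grey bands). Saa4, Orm3 and the Saa sum pass the threshold, and only the bands of Orm2 and Saa3 cross 0.

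Of the remaining secreted proteins none passed. Hp was the most abundant of the 10, at 101579, 79525, 151542 and 88291 normalized reads in F2_outcross replicates 1 to 4, against 122433, 64909, 80566 and 83686 in WT replicates 1 to 4. Its groups overlapped (log2 fold change 0.25 ± 0.25, adjusted p = 0.599). Lcn2 was at 3916, 2808, 6739 and 3879 in F2_outcross replicates 1 to 4, against 3813, 565, 1842 and 2206 in WT replicates 1 to 4. WT replicate 1 again lay among the F2_outcross libraries, the other 3 WT libraries lay below all of them, and the 2.39-fold difference did not pass (log2 fold change 1.26 ± 0.45, adjusted p = 0.145). Without WT replicate 2, its lowest library, the log2 fold change of Lcn2 was 0.72. Apcs was at 8831, 9829, 7839 and 11542 in F2_outcross replicates 1 to 4, against 18742, 10299, 12930.1 and 11128 in WT replicates 1 to 4. Apcs and Orm2 were the 2 genes of the 10 with a negative fold change; that of Apcs was -0.46 ± 0.18 on the log2 scale (adjusted p = 0.182).

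Per kilobase of the first annotated transcript, Hp stood highest, at 78241 ± 23922 normalized reads per kb in F2_outcross and 65352 ± 18175 in WT, and Orm1 followed at 29710 ± 4857 in F2_outcross and 28315 ± 5988 in WT (mean ± SD, n = 4 per group). Below them, Saa1, Saa4 and Apcs stood at 13633 ± 9522, 12983 ± 3339 and 9794 ± 1627 per kb in F2_outcross and did not differ beyond their spread. In WT the order of these 3 was Apcs at 13671 ± 3920, Saa4 at 6406 ± 1188 and Saa1 at 4432 ± 4954 per kb. Saa2, Lcn2, Orm3 and Orm2 formed a lower tier, at 4909 to 1691 per kb in F2_outcross and 2302 to 1299 in WT. Saa3 came last, at 568 ± 221 per kb in F2_outcross and 605 ± 439 in WT. Levels of Saa1, Saa2, Saa3, Lcn2 and Hp depend on the length used, while the other genes have the same length over all annotated exons. Over all annotated exons, Saa1 would be at 3351 per kb in F2_outcross and 1089 in WT, and Lcn2 at 1653 and 803. Saa4 would stay at 12983 and 6406, so the place of Saa1 beside Saa4 and Apcs in F2_outcross rests on the length used.

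Within the 10 genes, the same libraries often stood at the extremes. WT replicate 1 was the highest WT library in all 10 genes, and WT replicate 2 the lowest in 8 of them. How often these libraries were extreme over all genes was not counted. Paralogs among the 10 may share reads, so the 10 are not separate observations. F2_outcross replicate 3 was the highest of its group in 8 genes and the lowest in the other 2, Saa4 and Apcs. WT replicate 1 held 6.04 times the mean of the other WT libraries for Saa1, 5.95 times for Saa2, 3.11 times for Orm2 and 2.90 times for Saa3, but 1.28 times for Saa4. F2_outcross replicate 3 held 4.61 times the mean of the other F2_outcross libraries for Saa2, 3.10 times for Saa1, 1.90 times for Orm2 and 1.91 times for Lcn2, but 0.610 times for Saa4. Saa4 and Orm3, the 2 genes that rose, varied less within F2_outcross than Saa1 or Saa2 did. Lowest and highest library were 1.81-fold and 1.22-fold apart, against 4.15-fold and 7.48-fold. This was not particular to the genes that rose: Orm1, Apcs and Hp, which did not pass, were at 1.43-fold, 1.47-fold and 1.91-fold. Saa3, Orm2 and Lcn2 were at 2.28-fold, 2.37-fold and 2.40-fold.

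**Figure D4:**
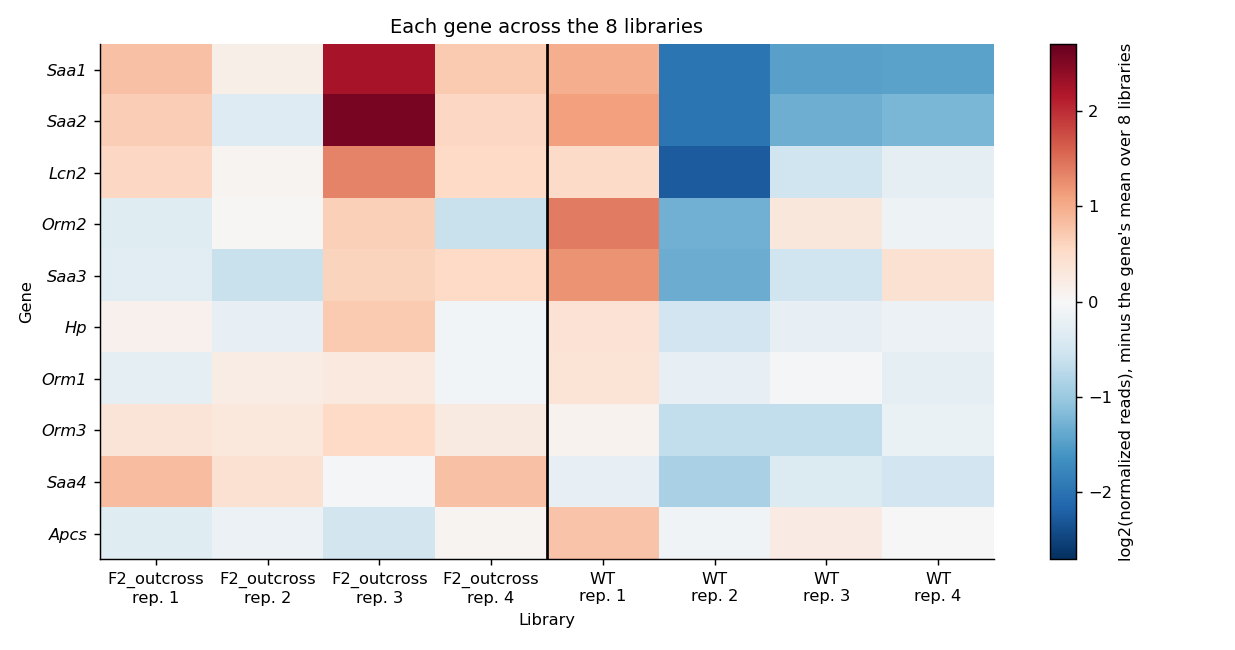
Log2 of normalized reads of each gene in each library, minus that gene's mean over the 8 libraries (colour scale, red above and blue below the mean), F2_outcross libraries left of the black line and WT libraries right of it. Saa1 and Saa2 are highest in F2_outcross replicate 3 and lowest in WT replicate 2.

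Markers of other cells differed between the libraries too. Csf1r, the receptor that macrophages need for survival, averaged 2129 ± 433 normalized reads in F2_outcross and 3331 ± 732 in WT, without overlap (adjusted p = 0.0567), and Cd5l, Timd4 and Cd68 came next (adjusted p = 0.0639, 0.0682 and 0.103). The 9 macrophage and Kupffer cell markers summed to 14347 to 20656 normalized reads in F2_outcross, highest in replicate 3, and to 17596 to 37700 in WT, highest in replicate 1 and lowest in replicate 2. All 9 had negative fold changes, as had 7353 of the 14390 genes tested, and 0 of 9 passed. Neutrophils hold lipocalin 2 in their granules, and of 12 neutrophil markers 5 were tested, all 5 with negative fold changes. S100a8 passed (log2 fold change -1.67 ± 0.35, adjusted p = 0.0313, a call lost in 6 of the 8 fits that left out a library), Ly6g had at most 1 read, and the marker sum was 126 to 199 in F2_outcross and 206 to 688 in WT. Both lists had negative medians, -0.61 and -1.29. In bulk liver fewer cells of a type and less RNA per cell cannot be told apart. Adipoq, a fat cell marker, was at 5.27, 0, 39.9 and 0 normalized reads in F2_outcross replicates 1 to 4 and at 4.18 or less in WT, and Lep, Retn and Plin1 were likewise highest in F2_outcross replicate 3 (16.5, 21.7 and 26.0). The 5 fat cell markers summed to 37.4 to 155 in F2_outcross and to 10.1 to 26.3 in WT. Cidec alone gave 34.5 and 111 normalized reads of the sums in F2_outcross replicates 2 and 4. Cidec did not overlap between the groups, whereas Adipoq, Lep, Retn and Plin1 did. These 4 fat cell genes and Ly6g were named after their values were seen. By the rule for named genes Cidec stands for the list, at 56.9 ± 37.2 in F2_outcross and 17.8 ± 7.11 in WT (adjusted p = 0.0720). It did not follow the other 4 in F2_outcross replicate 4, where Cidec was highest and Adipoq, Lep, Retn and Plin1 were at 0. There the sum was Cidec alone. The part of macrophages, neutrophils and fat cells in the values of Saa3, Lcn2 and the other genes was not tested.

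Upstream of these genes, no cytokine, receptor or signalling gene of the lists passed. Il6, the main inducer, had 0 reads in all 4 F2_outcross libraries and at most 7 reads in WT, too few to test; it was named for its role, with its values known. Of 12 inflammatory cytokines 7 were tested, 0 passed, and their median log2 fold change was -0.50. Il18 averaged 293 ± 50.5 normalized reads in F2_outcross and 411 ± 28.4 in WT, without overlap (adjusted p = 0.0711). Tnf averaged 5.47 ± 3.95 normalized reads in F2_outcross and 19.8 ± 9.81 in WT (adjusted p = 0.0831), and Il1b 86.9 ± 35.5 in F2_outcross and 172 ± 62.9 in WT (adjusted p = 0.0963). Of 13 tested cytokine receptors and antagonists 0 passed, with a median of 0.05. Il6ra, the interleukin 6 receptor, averaged 2613 ± 389.9 normalized reads in F2_outcross and 1640.3 ± 429 in WT, without overlap (log2 fold change 0.70 ± 0.18, adjusted p = 0.0574). Of 18 tested signalling genes and transcription factors 0 passed, with a median of 0.14. Stat3, Hnf4a and Cebpb were among the 4 with the smallest p. Stat3, which carries the interleukin 6 signal, averaged 5088 ± 839.8 in F2_outcross and 3929 ± 560.0 in WT (0.37 ± 0.14 on the log2 scale, adjusted p = 0.159). Cebpb, a C/EBP factor, averaged 525 ± 174 in F2_outcross and 372 ± 65.8 in WT (adjusted p = 0.215).

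**Figure D5:**
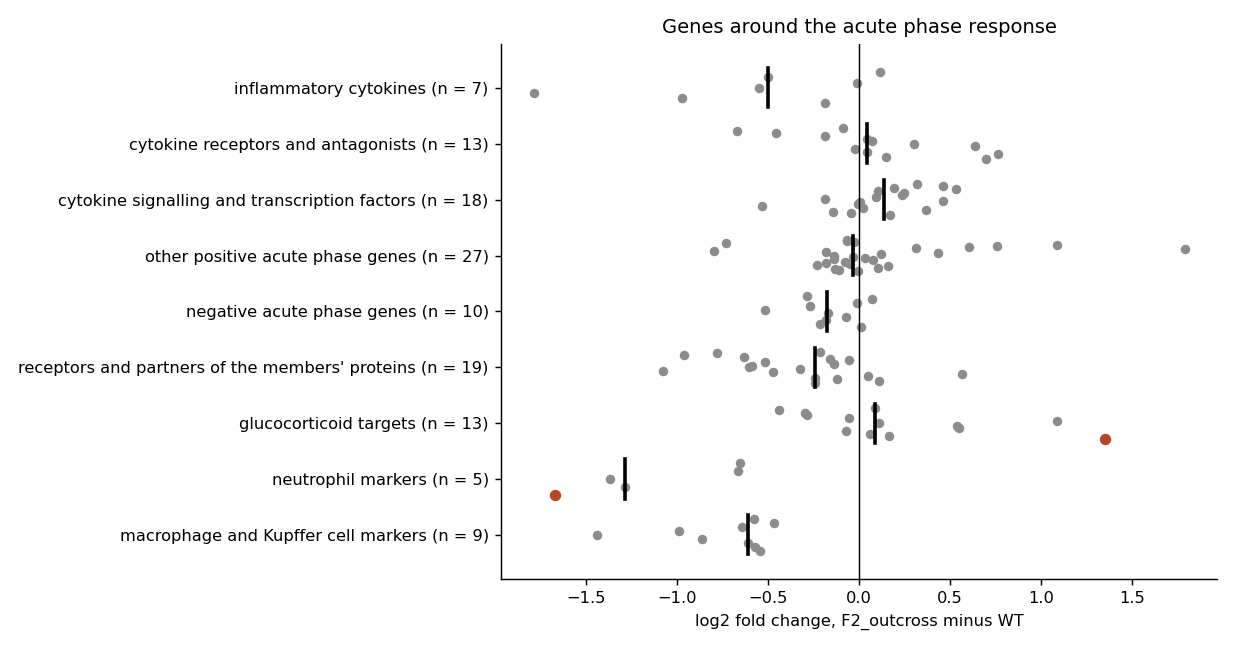
Log2 fold change (F2_outcross minus WT) of the tested genes in 9 lists around the acute phase response, one point per gene, with the list median as a black bar. The 2 coloured points, Fkbp5 among glucocorticoid targets and S100a8 among neutrophil markers, passed the threshold, and no other gene of these lists did.

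No other acute phase gene of the lists passed. Of 27 tested positive acute phase genes outside the 10, 0 passed, 11 had positive and 16 negative fold changes, and the median was -0.03. The list holds the fibrinogen chains, complement C3 and Crp. Nearest to the threshold were Hamp2, a hepcidin gene of the mouse (log2 fold change 1.79 ± 0.52, adjusted p = 0.0843), and Hamp, which encodes hepcidin, the hormone that limits iron export (-0.80 ± 0.26, adjusted p = 0.115). Hamp and Hamp2 are close paralogs, so their counts are uncertain. Steap4, a metalloreductase, and Lbp, which binds bacterial lipopolysaccharide, followed (0.60 ± 0.23 and 0.43 ± 0.17, adjusted p = 0.166 and 0.178). Of 10 negative acute phase genes, which fall during inflammation, 0 passed and the median was -0.18. Apoa1, the main protein of the particles that serum amyloid A joins, averaged 149844 ± 36029 normalized reads in F2_outcross and 213435 ± 40782 in WT (-0.52 ± 0.24, adjusted p = 0.230). Of 19 receptors and partners of the secreted proteins 0 passed, and the median was -0.24. Fpr2, a receptor that serum amyloid A can activate, had the smallest p among them (-1.08 ± 0.28, adjusted p = 0.0642), and Cd36, a scavenger receptor, came next (-0.59 ± 0.16, adjusted p = 0.0676).

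Among 13 glucocorticoid targets 1 rose, 0 fell and 12 did not pass, with a median of 0.09. Fkbp5, a co-chaperone of the glucocorticoid receptor, averaged 6144 ± 1828 normalized reads in F2_outcross and 2407 ± 772 in WT (log2 fold change 1.35 ± 0.26, adjusted p = 0.0228), and the groups did not overlap. Its call was lost without F2_outcross replicate 1, 2 or 4, without WT replicate 4, and with robust moderation. Tat, Dusp1 and Mt2 differed by 0.54 ± 0.23, 0.55 ± 0.18 and 1.09 ± 0.52 on the log2 scale, none of them past the threshold (adjusted p = 0.208, 0.116 and 0.252).

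The remaining marker lists cover the other liver cells. Of 7 hepatocyte, 5 sinusoidal endothelial, 5 stellate and fibroblast and 3 red blood cell markers tested 0 passed, with medians of -0.03, 0.06, -0.02 and -0.63. Of 4 bile duct markers tested 1 rose, with a list median of 0.49: Spp1, which encodes osteopontin, averaged 332 ± 76.7 normalized reads in F2_outcross and 158 ± 44.5 in WT (1.08 ± 0.21, adjusted p = 0.0247), a call lost in 3 of the 8 fits that left out a library.

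As a description, genes were ranked by Pearson's r between their deviations from the group means and those of the family sums, over 8 libraries. Differences between the groups do not enter this r. The closest to the Saa sum included Lancl2 (r = 0.986), Vav1 (0.978), Hmgb2 (0.973) and Gngt2 (0.970). The closest to the Orm sum were Commd4 (r = 0.948), Tagln2 (0.948), Lst1 (0.943), Psmb8 (0.938) and Coil (0.935). Of these genes, Vav1 and Lst1 were called lower in F2_outcross (log2 fold change -0.84 and -1.07, limma adjusted p = 0.0375 and 0.0391). The others did not pass. All are among the top 5 of 10837 genes each, and nothing is said of shared function or control.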

How the data were processed

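RNA of 8 mouse livers was sequenced (4 F2_outcross, 4 WT). Cutadapt, HISAT2, DESeq2 and build GRCm38 are named, per the submitters' processing notes, without versions. The authors deposited one table of log2 values per gene. Judged from the values, each is the log2 of a count divided by a size factor, after adding 0.1; converted back, 100% were whole reads within 0.001. The table was therefore not raw counts, and edgeR was not used. Values were converted back to normalized reads and tested as log2(normalized reads + 1) with limma 3.58.1 (R 4.3.3, trend), on the 14390 genes that reached 10 normalized reads in 4 or more libraries, adjusted after Benjamini-Hochberg over all of them, with a threshold of 0.05. Fold changes are on that scale, F2_outcross over WT, and understate changes of low genes. The script was tested on simulated data. Lines without a symbol (395 of 25069) were left out of tests. They held 1.22% of reads in WT replicate 2 and 0.611% to 0.770% in the other libraries. Lengths and transcripts are from GENCODE M21. Named genes are the 10 members, of each list genes among the 4 with the smallest p, and the 5 most alike to each family sum among genes averaging 50 normalized reads or more; exceptions are stated. Replicate numbers follow accession order. The NF-kappaB letters were shortened by 1 base, for printing, after a first search, and both searches are reported. Some genes and a motif that these rules cover are not reported here. Members and lists were chosen with earlier results of these data known. Alternatives were other pseudocounts, filters, normalizations, voom on recovered reads, robust moderation, family sums and each library left out.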

Additional observations from a re-analysis of the deposited data

Results flagged for a closer look

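Of 24 groups of 4 values examined (each gene and family sum in each group), 3 held a library far from the other 3, by Dixon's ratio of gap to range above the critical value for 4 values. By chance about 1 in 20 such groups would if the values were normally distributed, which was not tested. The ratios were taken on normalized reads, not on the log2 scale of the limma tests. Saa2 in F2_outcross replicate 3 was at 7206 normalized reads (ratio 0.844). Saa1 in WT replicate 1 was at 7215 (ratio 0.933), and Saa2 in WT replicate 1 was at 2620 (ratio 0.911). Saa1 and Saa2 are near-identical neighbours, so these values are not independent of each other.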

How the results depend on the processing

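No paired analysis was possible because the labels give the groups no shared replicate numbers. Of 289 values under the alternatives, 244 were kept, 16 lost the call and 1 gained it. A further 20 counts moved by over 1.5 times and 8 fold changes changed sign. Kept fold changes had the same direction and side of the threshold, also in genes never called, and kept counts stayed within 1.5 times. The call was lost in 8 of 16 alternatives for Orm3, 5 of 16 for Saa4 and 3 of 16 for the Saa sum. The cause of these changes was not tested. With quantile normalization the log2 fold change was -0.020 for Orm1 and -0.025 for the Orm sum. Orm2 ranged from -0.59 to 0.31 with 1 library left out, at 0.04 without F2_outcross replicate 4 and 0.31 without WT replicate 1. Saa3 ranged from -0.30 to 0.55, at -0.05 and -0.03 without F2_outcross replicates 3 and 4, and at -0.30 and -0.03 without WT replicates 2 and 3. The Saa sum ranged from 1.03 to 1.43 with 1 library left out. Of the 10 genes, 1 passed with quantile normalization, 1 with voom, and 0 to 3 with 1 library left out (0 without F2_outcross replicate 1, 2 or 4 or WT replicate 3 or 4, 1 without F2_outcross replicate 3, and 3 without WT replicate 1, where Saa1 joined Saa4 and Orm3). With the Orm and the Saa reads summed before the fit, 1 of the 5 lines left (the Orm sum, the Saa sum, Hp, Lcn2 and Apcs) passed, the Saa sum. With 1 library left out, 0 to 2 cytokine receptors, 0 to 1 signalling genes, 0 to 1 other positive acute phase genes and 0 to 2 glucocorticoid targets passed, and 0 glucocorticoid targets passed with robust moderation. Over all genes, 383 passed, against 248 with voom, and 108 (without F2_outcross replicate 2) to 1077 (without WT replicate 2) with 1 library left out. Il6 had too few reads in these libraries to test.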
